A study of Mus musculus with 36 samples.

Results

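Pitx1, Nkx6-1, Nkx6-2, Nkx1-2, Nkx2-5 and Nkx3-2, 6 of the 22761 genes measured, were followed across embryonic mouse kidney progenitors and their counterparts made from mouse embryonic stem cells (mESC). These homeobox genes were picked by name for their uneven levels in these same libraries, so their levels are given as a description, with no test of any difference between groups in them. Homeobox genes encode transcription factors that bind DNA through a homeodomain and set regional identity in the embryo. PITX1 is known for specifying the hindlimb, NKX6-1 and NKX6-2 for patterning the ventral neural tube, NKX1-2 for the caudal epiblast and tail bud, NKX2-5 for heart development, and NKX3-2 for the sclerotome and the mesenchyme around the gut. None of the 6 is a standard marker of the metanephric kidney, in which nephron progenitors (NP) form nephrons, stromal progenitors (SP) form the interstitium, and the ureteric bud (UB) branches into the collecting duct tree.

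The study asked how closely progenitors made from mESC resemble those taken from the fetus (ex-fetu), and sequenced mRNA of sorted cells in 36 libraries, 4 for each of 9 groups. Ex-fetu NP, SP and UB came from CD1 mouse kidneys at embryonic day E11.5 or E12.5, and each library pooled the kidneys of all embryos of a mouse. NP and SP were separated by ITGA8 and PDGFRA at the cell surface (NP high for the former, SP for the latter) after cells positive for CD31, EpCAM or RET had been gated out, and UB was sorted as RET and EpCAM positive. Induced NP (iNP) and induced SP (iSP) were sorted through the same gates from embryoid bodies of the E14 mESC line given Activin A, CHIR99021, Y27632, BMP4, retinoic acid and FGF9 in steps. Engineered ureteric buds (eUB, titled iUB in the labels) were sorted as EpCAM and mCherry positive from pooled embryoid bodies of an mCherry reporter mESC line. These had Activin A, BMP4, CHIR99021, retinoic acid, FGF9, SB431542, Y27632, GDNF and Matrigel in steps. The authors' sorting and sequencing methods name the line Sox9-mCherry, but the line they describe making is Sox8-mCherry. No group carries a mutation according to the labels, each induced group rests on a single mESC line, and each of its libraries pooled the embryoid bodies of a differentiation batch.

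Values are normalised CPM, read counts scaled to the size of each library by the authors. Libraries held 13004352 to 52535113 reads, so a count of 3 reads, taken here as the floor, was worth 0.0605 to 0.223 normalised CPM. The sorted identities were checked against defining markers. The UB marker Ret stood at 420 to 498 in eUB and Epcam at 588 to 684. The NP marker Six2 was 116 to 152 in iNP against 557 to 641 in E11.5 NP, and the SP marker Foxd1 was 11.4 to 19.2 in iSP against 265 to 563 in E11.5 SP, both below their ex-fetu range. Foxd1 did not set iSP apart in these libraries, since it was 15 to 29.5 in eUB and 44.3 to 92.9 in E11.5 NP. Macrophage genes summed to 80.2 to 136 in E11.5 UB and 2.82 to 6.27 in eUB. In 8 UB libraries the age under cell source contradicts the title, and the title was followed. The first E12.5 UB library stands apart: its mean correlation with its group was 0.965, its Epcam was 372 against 603 to 635 in the others, and its NP marker genes summed to 594 against 63.8 to 106. The first and second E11.5 SP libraries stand apart from replicates 3 and 4 in Tbx4, Isl1 and Hand2, as given below. Member folds, list counts and tests that rest on these libraries are given with and without them. Other libraries also correlated less with their groups: the first E12.5 SP (0.971), the first E12.5 NP (0.974) and the second iNP (0.974). Pdgfra was 204 in the first of these against 551 to 622 in the rest of its group. Eya1 was 165 in the next against 463 to 481, and Itga8 was 75.5 in the last against 210 to 230. These were kept in every member fold given. In bulk libraries, fewer cells of a type and less RNA per cell cannot be told apart.

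All 6 members lie on the minus strand of the mouse genome (GRCm38, GENCODE gene models). Pitx1 lies at chr13:55825051-55836192, Nkx6-1 at chr5:101658139-101664996, Nkx6-2 at chr7:139579376-139582797, Nkx1-2 at chr7:132594878-132599637, Nkx2-5 at chr17:26838664-26845009 and Nkx3-2 at chr5:41761483-41764501. Nkx6-1 and Nkx3-2 share chromosome 5 and Nkx6-2 and Nkx1-2 share chromosome 7, but each has other genes as its nearest neighbours.

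The promoter stretches of 3 members are shown because they carry the main contrasts below: Nkx6-1 was read mainly in eUB, Nkx1-2 in iNP, and Nkx2-5 in iSP and iNP alike. Each run holds the 250 bases before the gene's start, 5′ to 3′ on the gene's own strand, from RefSeq (GRCm38.p6), and CpG dinucleotides stand in capitals.
Nkx6-1, chr5:101664712-101664961, minus strand: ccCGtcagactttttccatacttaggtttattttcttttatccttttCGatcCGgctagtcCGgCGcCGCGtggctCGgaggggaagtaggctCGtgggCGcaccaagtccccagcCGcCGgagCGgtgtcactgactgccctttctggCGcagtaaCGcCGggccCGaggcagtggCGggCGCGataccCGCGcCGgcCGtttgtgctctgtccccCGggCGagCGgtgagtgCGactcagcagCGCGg
Nkx1-2, chr7:132599638-132599887, minus strand: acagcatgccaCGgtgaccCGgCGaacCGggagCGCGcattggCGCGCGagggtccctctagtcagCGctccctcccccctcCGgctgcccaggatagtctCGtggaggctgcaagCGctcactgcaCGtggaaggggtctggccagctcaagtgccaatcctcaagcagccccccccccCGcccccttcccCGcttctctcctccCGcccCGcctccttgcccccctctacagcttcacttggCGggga
Nkx2-5, chr17:26841566-26841815, minus strand: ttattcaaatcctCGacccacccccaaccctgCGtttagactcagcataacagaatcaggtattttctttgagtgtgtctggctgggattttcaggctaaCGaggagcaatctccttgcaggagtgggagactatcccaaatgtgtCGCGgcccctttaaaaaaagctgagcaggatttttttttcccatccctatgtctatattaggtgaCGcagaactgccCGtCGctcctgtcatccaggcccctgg

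The capitals crowd the Nkx6-1 stretch, with 30 CpG, thin out in Nkx1-2, with 19, and are sparse in Nkx2-5, with 8. A promoter was found for 5 of the 6 members. Over windows of 300 bases (250 before and 50 after the start), Nkx6-1 held 40 CpG, more than 96.1% of the 32851 promoters in the table, whose median was 7. Nkx6-2 held 32, Nkx3-2 held 25, Nkx1-2 held 21 and Nkx2-5 held 9. The GC content was 66.7% to 67.3% in Nkx6-1, Nkx6-2, Nkx1-2 and Nkx3-2 and 51.7% in Nkx2-5, against a median of 52.7% over all promoters. A core that many homeodomains bind, TAAT (ATTA on the other strand), was searched on both strands. It occurs in 58% of all these windows, was present in those of Nkx2-5, Nkx3-2 and Nkx6-2, and was not found in those of Nkx6-1 and Nkx1-2. The starts used by RefSeq for Nkx2-5, Nkx6-1 and Nkx3-2 lie inside the gene models above, downstream of their outer ends. The Nkx2-5 and Nkx6-1 stretches shown thus lie within those models.

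Nkx6-1 had its highest group mean in eUB, Pitx1 and Nkx2-5 in iSP, Nkx6-2 and Nkx1-2 in iNP, and Nkx3-2 alone in an ex-fetu group, E11.5 SP. Per kilobase of exon, which allows levels of different genes to be compared, the highest mean levels were 7.86 normalised CPM per kb for Nkx6-1 in eUB and 4.4 for Pitx1 in iSP, with 4.07 for Pitx1 in E11.5 SP. The remaining members were low: Nkx2-5 reached 0.877 per kb in iSP, Nkx1-2 reached 0.727 in iNP, Nkx3-2 reached 0.636 in E11.5 SP and Nkx6-2 reached 0.503 in iNP. Nkx6-1 in eUB and Pitx1 in the stromal groups were thus the best covered members, and the others rest on fewer reads.

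**Figure D1:**
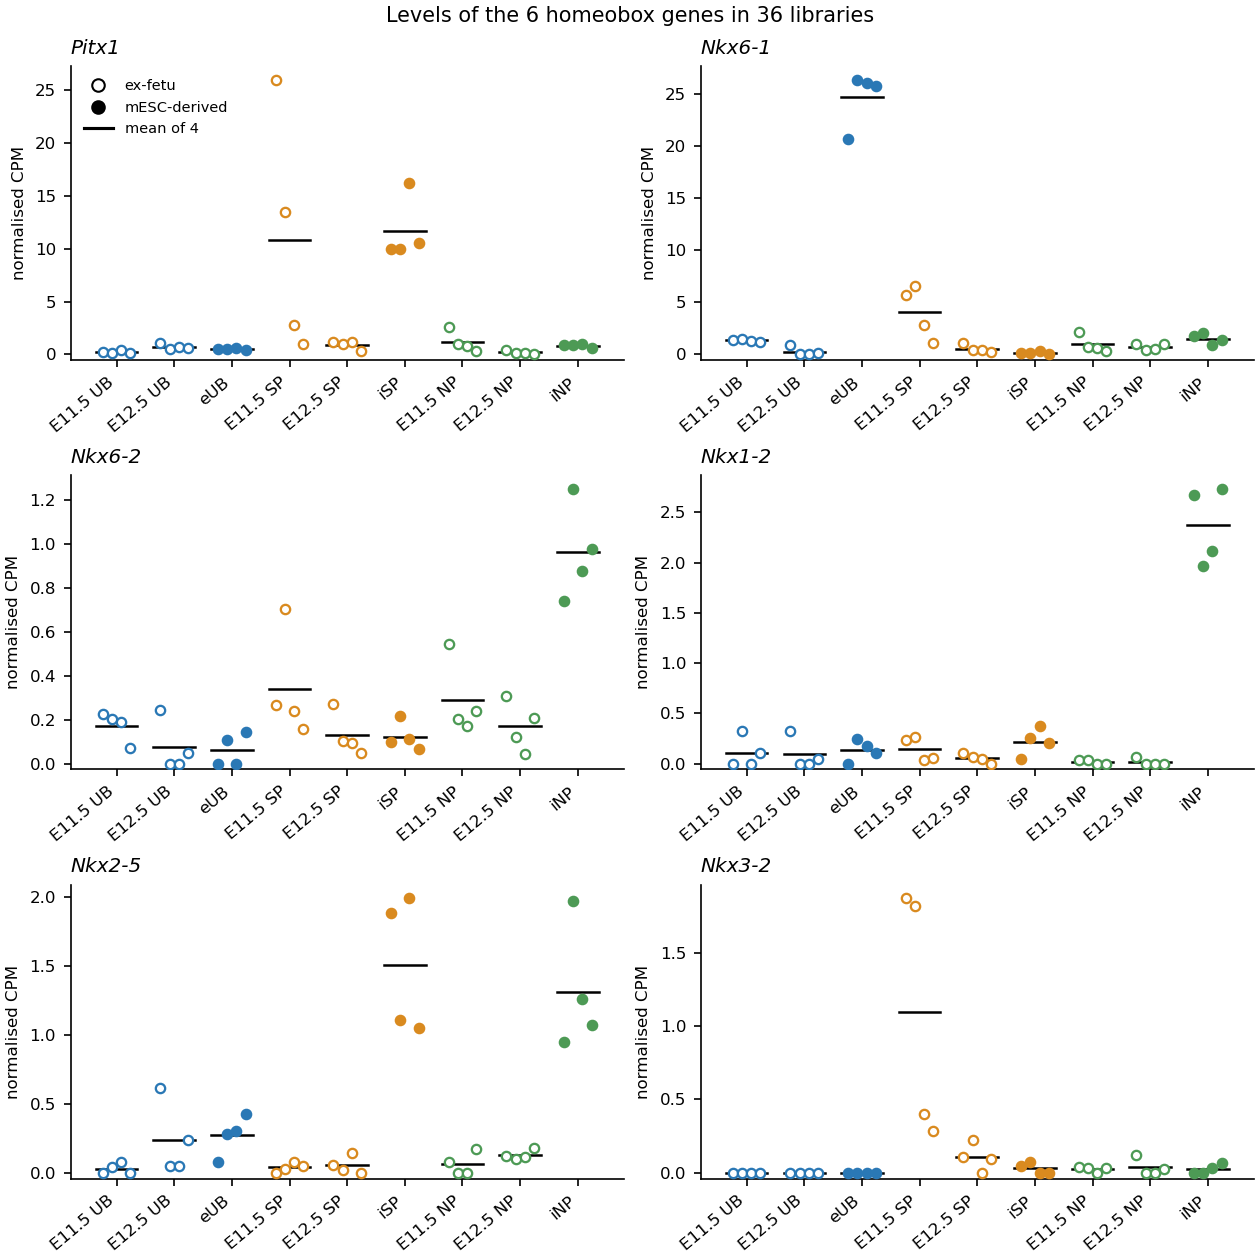
Normalised CPM of the 6 members (a panel each, linear axis) in the 9 groups, with a point for each of the 4 libraries, filled for groups made from mESC, and a bar at the mean. Nkx6-1 is highest in eUB (20.6 to 26.3), Pitx1 in iSP and in E11.5 SP, where it spans 1.01 to 26, and Nkx1-2 and Nkx6-2 in iNP.

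Nkx6-1, the ventral neural tube and pancreatic beta cell factor, was the most abundant member and marked eUB. Its values in the 4 eUB libraries were 20.6, 26.3, 26 and 25.7 normalised CPM (24.7 ± 2.69, SD, n = 4). In E11.5 UB they were 1.42, 1.49, 1.28 and 1.17. In E12.5 UB they were 0.86, 0.0473, 0.0457 and 0.0966, the last 3 from 1 or 2 reads each. Every eUB library was above every ex-fetu UB library of either age, and E12.5 UB was at or near the floor outside its first library. The mean in eUB was 18.4-fold that of E11.5 UB, a log2 difference of 3.45 (SE 0.11) on the log2(value + 1) scale. Against E12.5 UB the ratio of means was 94-fold. Without the first E12.5 UB library it was 390-fold, resting on 4 reads in the other 3, for which an exact 95% counting interval, which covers counting error only, runs from 157 to 1476.

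Outside the epithelium Nkx6-1 was low and ordered differently. It was 5.74, 6.52, 2.82 and 1.12 in E11.5 SP and 1.14, 0.403, 0.383 and 0.275 in E12.5 SP. In iSP it was 0.145, 0.107, 0.296 and 0.0676, from 2 to 8 reads. All iSP libraries lay under the lowest E11.5 SP library and overlapped E12.5 SP only at its lowest value, so Nkx6-1 was above its E11.5 ex-fetu level in eUB and below it in iSP. The E11.5 SP mean was 26.3-fold that of iSP, and 12.8-fold without its first and second libraries. The iNP libraries held Nkx6-1 at 1.72, 2.07, 0.879 and 1.41, overlapping the E11.5 NP values of 2.1, 0.739, 0.64 and 0.342 through the first of these alone. The ratio of means, iNP to E11.5 NP, was 1.59, and 2.65 without E11.5 NP replicate 1. Leaving out that library ends the overlap by construction, so nothing is read from its end. Of neighbouring groups in the order of the Nkx6-1 means, only eUB and E11.5 SP, at the top, did not overlap.

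Nkx6-2, its paralogue with a shared role in the neural tube, did not follow Nkx6-1. It was 0, 0.106, 0 and 0.142 in eUB and 0.226, 0.201, 0.189 and 0.0711 in E11.5 UB, all at or near the floor. Its highest values were in iNP, at 0.739, 1.25, 0.879 and 0.979 (0.96 ± 0.214, SD, n = 4), from 21 to 43 reads. The values of E11.5 NP were 0.546, 0.201, 0.171 and 0.239, and those of E12.5 NP 0.308, 0.123, 0.0453 and 0.206, so iNP lay above both without overlap. The iNP mean of Nkx6-2 was 3.32-fold that of E11.5 NP, 5.64-fold that of E12.5 NP and 7.84-fold that of iSP. Nkx6-2 passed the filter for testing (1 normalised CPM in 4 of the 8 libraries compared) in none of the 9 comparisons. Its exons share 246 bases with those of Inpp5a, on the opposite strand, and the strand setting of the authors' counting is not given in the sources used here. Inpp5a stood at 37.2, 37, 37.7 and 34.5 over the iNP libraries and 38.9, 40.6, 35.3 and 41.3 in E11.5 NP, a log2 difference of -0.09 (adjusted p = 0.402, limma with Benjamini-Hochberg adjustment). How far Inpp5a reads enter the Nkx6-2 values was not tested.

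Pitx1, the hindlimb factor, had its highest values in 2 stromal groups, iSP and E11.5 SP. It was 9.95, 9.99, 16.2 and 10.6 in iSP (11.7 ± 3.03, SD, n = 4) and 1.19, 1.03, 1.2 and 0.321 in E12.5 SP. In iNP, sorted from embryoid bodies of the same protocol, it was 0.844, 0.918, 0.967 and 0.637. All 4 iSP libraries lay above all libraries of both other groups. The iSP mean was 12.5-fold that of E12.5 SP (log2 difference 2.72, SE 0.21), 13.9-fold that of iNP and 22.1-fold that of eUB.

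In the remaining groups Pitx1 was low. The eUB libraries, at 0.52, 0.532, 0.644 and 0.425, lay just above E11.5 UB, at 0.258, 0.161, 0.415 and 0.142, and overlapped E12.5 UB, at 1.11, 0.521, 0.686 and 0.58. E11.5 NP held Pitx1 at 2.57, 0.94, 0.81 and 0.308, around the level of iNP. The ratio of means, iNP to E11.5 NP, was 0.727 and turned to 1.23 without E11.5 NP replicate 1, with overlap in both settings. E12.5 NP held it at 0.462, 0.0981, 0.113 and 0.0772, below all iNP libraries. The iNP mean was 4.49-fold that of E12.5 NP, a mean raised most by its first library.

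In E11.5 SP, Pitx1 spread far more widely, with 26, 13.5, 2.78 and 1.01 in replicates 1 to 4, from 779, 557, 70 and 39 reads. Replicates 1 and 2 were level with or above iSP and replicates 3 and 4 were below it, so the groups overlapped. The ratio of the means, iSP to E11.5 SP, was 1.08, and 6.17 without replicates 1 and 2, when the groups no longer overlapped. On the log2 scale the difference was 0.75 (SE 0.70), and 2.18 without them. It was 1.38 without replicate 1 alone and 0.13 without replicate 4 alone. Whether Pitx1 was higher in iSP than in E11.5 SP therefore turns on these libraries.

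Nkx3-2, also called Bapx1, split the E11.5 SP libraries in the same way. It was 1.87 and 1.82 in replicates 1 and 2 and 0.397 and 0.286 in replicates 3 and 4. In E12.5 SP it was 0.108, 0.222, 0 and 0.0918, and in iSP 0.0483, 0.0716, 0 and 0, with 3 reads over all 4 iSP libraries. E11.5 SP was above both, without overlap, and iSP was at the floor. The E11.5 SP mean was 36.5-fold that of iSP (exact 95% counting interval 13.3 to 194), and 11.4-fold without replicates 1 and 2 (3.46 to 60.7). Nkx3-2 gave no read in any of the 12 eUB and UB libraries, which allows up to 3 reads, or 0.0969 to 0.223 normalised CPM, in each. In NP and iNP it never passed 0.123.

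**Figure D2:**
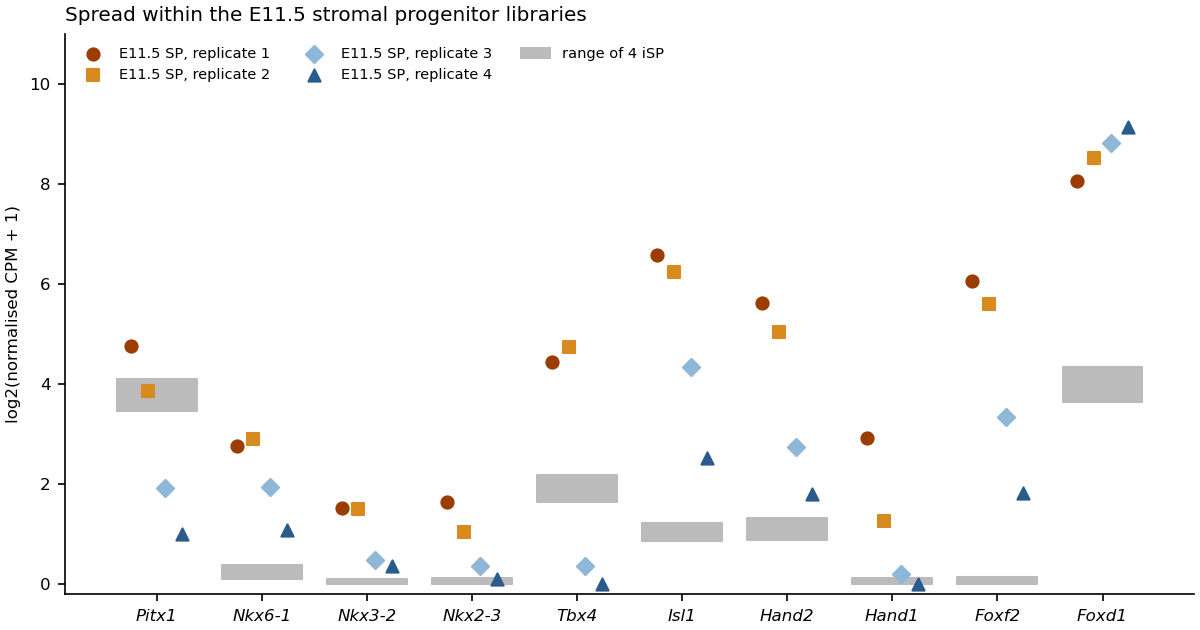
Normalised CPM in the 4 E11.5 SP libraries on the log2(value + 1) scale, with a marker for each replicate, for members and genes of limb bud, gut or stromal mesenchyme, and grey bars for the range of the 4 iSP libraries. Pitx1, Nkx3-2, Tbx4, Isl1 and Hand2 are high in replicates 1 and 2 and low in 3 and 4, while the stromal marker Foxd1 is lowest in replicate 1 (265) and highest in replicate 4 (563).

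Other genes of the limb bud and adjoining mesenchyme moved with Pitx1 among the E11.5 SP libraries. Tbx4, the hindlimb T-box factor, was 20.7, 25.9, 0.278 and 0 in replicates 1 to 4. Isl1, which acts upstream of hindlimb outgrowth, was 94.7, 74.1, 19.3 and 4.73. Hand2 was 47.9, 32, 5.72 and 2.5, Foxf2 was 65.6, 47.3, 9.14 and 2.52, and Hoxa13 was 27.1, 19.5, 4.81 and 1.27. Replicates 1 and 2 averaged 10.4 times replicates 3 and 4 for Pitx1, 5.4 times for Nkx3-2, 3.11 times for Nkx6-1 and 0.185 times for Nkx2-5, whose reads there were 5 in all. Over the 13819 genes measured in these libraries, 30.7% had replicates 1 and 2 both above replicates 3 and 4, and 0.926% had means at least 4 times apart in that direction. Of the 12 genes of a hindlimb list used below, 10 were higher in both of these replicates, and the list summed to 832 and 773 there against 523 and 472. The part of limb bud or other neighbouring tissue in the Pitx1 and Nkx3-2 values was not tested.

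A list of 12 hindlimb genes and Pitx1 partners, written with earlier results of these data known, was counted beside Pitx1. Against E12.5 SP, 7 of its 11 tested genes were higher in iSP and 2 lower, with a median log2 difference of 1.80 against 0.04 over all 13903 genes tested, of which 33.3% were called higher and 28.8% lower, 62.1% in all (adjusted p under 0.05, limma with Benjamini-Hochberg adjustment). Msx1, a homeobox gene of the limb bud, rose by a log2 of 3.22 (adjusted p = 8e-08), Tbx5, the forelimb T-box factor, by 2.12 (adjusted p = 1.2e-06) and Tbx4 by 1.80 (adjusted p = 8.6e-06), while Fgf10, the mesenchymal signal of limb outgrowth, fell by 1.33. Markers of other cell types moved in the same comparison: 6 of 10 NP genes were higher and 2 lower (sums of 514 to 585 in iSP and 373 to 668 in E12.5 SP), 7 of 11 UB genes were higher and 3 lower (212 to 241 and 89.3 to 124), and 6 of 9 endothelial genes were higher and 1 lower (57 to 87.4 and 28.6 to 39.7). Their part in the Pitx1 values and the list count was not tested. Against E11.5 SP, 3 of 12 were higher and 3 lower, with a median of 0.20 and a background of 35.5% higher and 32.1% lower (67.6% called). There Prrx1 (1.68), Prrx2 (1.14) and Lmx1b (1.87) were higher in iSP, and Fgf10 (-2.08), Isl1 (-3.86) and Hand2 (-2.67) were lower, each with an adjusted p under the threshold. Without E11.5 SP replicates 1 and 2, 7 of the list were higher and 3 lower, with a median of 1.04, where 34.9% of all genes were called higher and 33% lower. The direction of those 6 genes held in that setting too, with Isl1 at -2.38 (adjusted p = 0.0008) and Hand2 at -1.15 (adjusted p = 0.0033). The Tbx4 difference from all 4 E11.5 SP libraries was -0.47 (adjusted p = 0.7), and it turned to 1.74 (adjusted p = 8.2e-05) without replicates 1 and 2. Between iSP and iNP, where Pitx1 was low in iNP, 7 of 11 list genes were higher in iSP and 4 lower. Of all 14052 genes tested there, 4320 were called. Msx1 was among the lower, at 9.09 to 11.8 in iSP and 31.8 to 51.7 in iNP.

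Nkx1-2, a factor of the caudal epiblast and tail bud, was read almost solely in iNP. It was 2.67, 1.97, 2.11 and 2.73 there (2.37 ± 0.388, SD, n = 4), 328 reads in all. In E11.5 NP it was 0.039, 0.0336, 0 and 0, and in E12.5 NP 0.0616, 0, 0 and 0, with 2 reads in each group. The ex-fetu NP groups thus lay under the floor of 3 reads, far below the lowest iNP library. The ratio of means was 131 against E11.5 NP (exact 95% counting interval 35.6 to 1073), or 212 without its replicate 1, from the 1 read then left (35.2 to 7823), and 154 against E12.5 NP (51.4 to 1551). In iSP, from the same protocol, Nkx1-2 was 0.0483, 0.251, 0.369 and 0.203, and iNP was 10.9-fold higher. It was 0, 0.248, 0.172 and 0.106 in eUB and 0.234, 0.267, 0.0397 and 0.052 in E11.5 SP, from at most 7 reads in an eUB library and 11 in an E11.5 SP library. The only ex-fetu libraries with more than 0.3 were the second E11.5 UB (0.322) and the first E12.5 UB (0.327), with 8 reads each. An antisense transcript, Gm16764, shares 541 exonic bases with Nkx1-2 and was not analysed here.

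The genes known to be active beside Nkx1-2 in the tail bud and beside Nkx6-2 in the neural tube were counted from lists, likewise written with earlier results known. Of 11 tail bud genes tested between iNP and E11.5 NP, 10 were higher in iNP and 1 lower, with a median log2 difference of 1.57 against 0.07 over all 14064 genes, of which 35.5% were called higher and 29.2% lower (64.7% in all). Wnt3a, a signal that maintains the tail bud, rose by 2.57 (SE 0.13, adjusted p = 3.6e-07), Cdx4, a caudal homeobox gene, by 1.59 (adjusted p = 3.1e-06) and Hes7, of the segmentation clock, by 1.35, while Sp5, a WNT target, fell by 0.94. The tail bud list summed to 102 to 131 in iNP against 34.5 to 49.4 in E11.5 NP, and was higher still in eUB, at 187 to 219 against 54.2 to 77.5 in E11.5 UB, where Nkx1-2 was low. Between eUB and E11.5 UB, 4 of 7 tested genes of the list were higher and 2 lower (60.5% of all genes were called in either direction). T, the tail bud mesoderm gene, stayed at 0.117 to 0.296 in iNP. Of 10 neural tube genes, 8 were higher in iNP and 2 lower, with a median of 2.07, although the list summed to 136 to 146 in iNP and 136 to 249 in E11.5 NP, and so was no higher in sum. Sox2, of neural progenitors and shared by both lists, rose by 4.44 (SE 0.22, adjusted p = 2.5e-07), Sox1 by 2.77 (SE 0.10, adjusted p = 3.9e-08) and the dorsal gene Pax7 by 2.98 (adjusted p = 5.4e-08). Gli1 and Ptch1, targets of hedgehog signalling, fell by 2.64 and 1.32. Against E12.5 NP, 9 of 11 tail bud genes and 8 of 10 neural genes were higher in iNP, where 44.3% of all genes were called in either direction. In all of these tests the adjustment was Benjamini-Hochberg over all genes tested in limma.

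**Figure D3:**
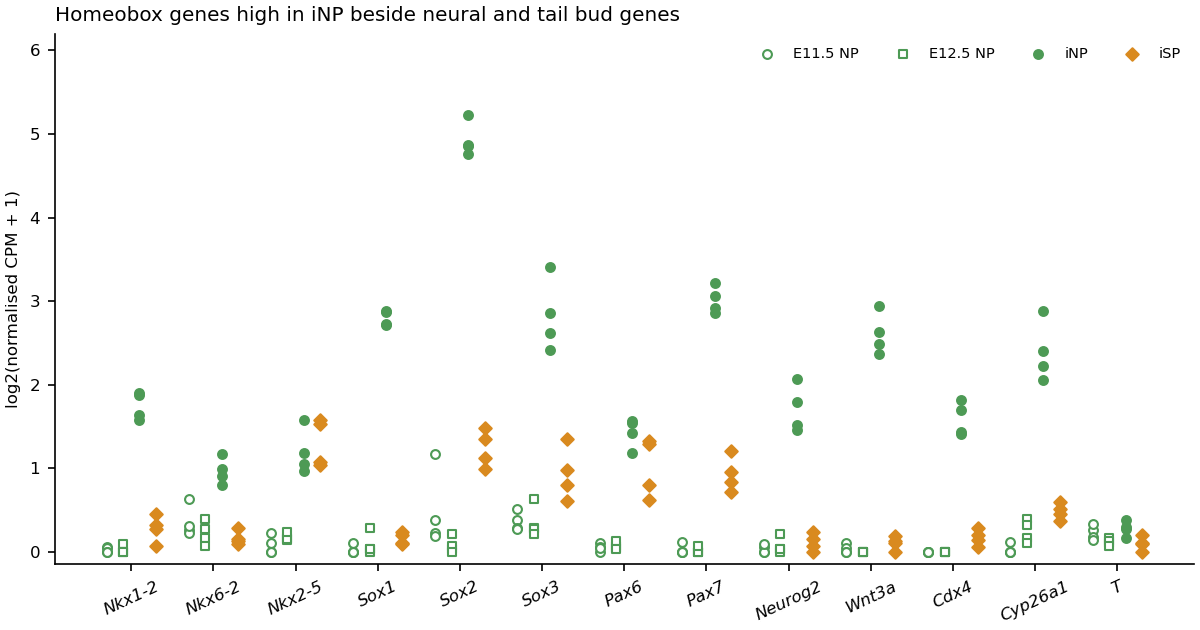
Levels in normalised CPM in the NP and iNP libraries as log2(value + 1) for Nkx1-2, Nkx6-2, Nkx2-5 and genes of the tail bud and neural tube lists, with iSP beside them and a point for each library. The 4 iNP libraries hold Nkx1-2 at 1.97 to 2.73 while no NP library passes 0.0616.

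Nkx2-5, the early heart factor, was the member that iSP and iNP shared. It was 1.88, 1.11, 1.99 and 1.05 in iSP (1.51 ± 0.5, SD, n = 4) and 0.95, 1.97, 1.26 and 1.07 in iNP (1.31 ± 0.455, SD, n = 4). In E11.5 SP it was 0, 0.0243, 0.0795 and 0.052, and in E12.5 SP 0.0542, 0.0202, 0.143 and 0. E11.5 NP held 0.0779, 0, 0 and 0.171 and E12.5 NP held 0.123, 0.0981, 0.113 and 0.18. Both induced groups were above all 16 ex-fetu SP and NP libraries, and they overlapped each other, with a ratio of means of 1.15. The iSP mean was 38.8-fold that of E11.5 SP and 27.7-fold that of E12.5 SP, each of which held 5 reads, and was 23-fold that of E11.5 SP without its replicates 1 and 2. The iNP mean was 21.1-fold that of E11.5 NP (exact 95% counting interval 9.49 to 50.4) and 10.2-fold that of E12.5 NP. E11.5 NP held 7 reads, 5 of them in replicate 4. In eUB, Nkx2-5 was 0.0743, 0.284, 0.301 and 0.425, from 1 read in the first library. The mean was 9.36-fold that of E11.5 UB, which held 3 reads in all (exact 95% counting interval 3.42 to 56.9), but the first eUB library lay under the highest E11.5 UB library (0.0755). The eUB values also overlapped E12.5 UB, whose libraries held 0.614, 0.0473, 0.0457 and 0.241. The latter overlap remained without the first E12.5 UB library.

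Cardiac genes were counted beside Nkx2-5 from another such list. Between iSP and E11.5 SP, none of 10 tested list genes was higher in iSP and 9 were lower, with a median log2 difference of -1.33 against 0.04 over all genes, of which 35.5% were called higher and 32.1% lower. The list summed to 317 and 304 in E11.5 SP replicates 1 and 2 against 198 and 210 in replicates 3 and 4. Without the former pair, the same 9 genes were lower and Tbx5 was higher (2.12, adjusted p = 9.2e-06), with a median of -1.18. With all libraries Gata6 fell by 1.31, Myocd by 1.35, Mef2c by 0.78 and Tnni1, a slow troponin also made in skeletal muscle, by 1.71 (adjusted p = 4.7e-06, limma with Benjamini-Hochberg adjustment). The list shares Isl1, Hand2 and Tbx5 with the hindlimb list. Against E12.5 SP, 2 of 9 were higher and 3 lower (33.3% and 28.8% of all genes). Between iNP and E11.5 NP, 6 of 8 were higher and none lower (35.5% and 29.2% of all genes), with a median of 1.13, among them Gata5 (2.32, adjusted p = 1.9e-06), Gata6 (2.31) and Mef2c (1.60). Nkx2-5 stood above its ex-fetu level in both induced mesenchymal groups, whereas the called cardiac genes were all lower in iSP than in E11.5 SP with every library in the fit, and all higher in iNP than in E11.5 NP. The difference between these contrasts was not tested. Endothelial genes moved too: 10 of 10 were higher in iNP than in E11.5 NP, with a median of 1.51 and sums of 84.1 to 154 against 16 to 45.8. Between iSP and E11.5 SP, 7 of 10 were higher (sums of 57 to 87.4 against 22.1 to 63.4), and 4 were higher and 1 lower without E11.5 SP replicates 1 and 2. Markers of other sorted cells moved in iNP against E11.5 NP as well. Of the stromal list 6 of 10 were higher and 2 lower, with sums of 1049 to 1511 against 911 to 955, and Pdgfra, the antigen of the SP sort, was 17.7 to 44.9 against 1.98 to 3.04. Of the UB list 7 of 11 were higher and 1 lower, with Epcam at 21.9 to 33 against 6.74 to 11.4, although the list summed to 344 to 481 against 488 to 599. Of the NP list 1 of 10 was higher and 8 lower, with sums of 850 to 1272 against 1944 to 2182. The sort gated out cells with CD31 (Pecam1), EpCAM or RET at the surface, and Pecam1 was 2.49 to 4.23 in iNP against 0.585 to 2.59 in E11.5 NP. The part of endothelial, stromal or UB cells in the levels of Nkx2-5, Nkx1-2 and Nkx6-2 and in the cardiac, tail bud and neural counts was not tested.

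The sclerotome and somite list, in which Nkx3-2 has its known role, was higher in iSP than in E11.5 SP for 7 of 12 genes and lower for 4 (35.5% and 32.1% of all genes), although Nkx3-2 itself was at the floor in iSP. The list summed to 679 to 755 in iSP and to 841 to 1052 in E11.5 SP. Pax1, which acts upstream of Nkx3-2 in the sclerotome, rose by a log2 of 3.91 (SE 0.31, adjusted p = 4.9e-06) and Meox1, a somite gene that nephron progenitors also express, by 3.32 (adjusted p = 1.9e-08). Foxc1 was at -5.25 and Sox9, the cartilage factor, at -1.67. Adjusted p-values are from limma with Benjamini-Hochberg adjustment. Without E11.5 SP replicates 1 and 2, 5 genes of the list were higher and 4 lower, with Pax1 at 4.29, Meox1 at 3.38, Foxc1 at -5.16 and Sox9 at -1.59.

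Few of the members could enter the tests across genes. Between iSP and E11.5 SP, 3 of the 6 passed the filter on low values, and the groups did not overlap for 1 that was higher in iSP (background 32.7% of all genes tested) and 1 that was lower (background 29.4%). Without E11.5 SP replicates 1 and 2, Pitx1 joined the former. Between eUB and E11.5 UB, Nkx6-1 alone passed, and was higher without overlap (background 28.9%). Between iNP and E11.5 NP, 2 passed and 1 was higher without overlap (background 33.7%). Without E11.5 NP replicate 1, the sole library that overlapped, Nkx6-1 joined it by construction. Against the E12.5 groups, 1 of 1 in eUB (background 21.9%), 2 of 2 in iSP (background 31.7%) and 1 of 1 in iNP (background 25%) were higher without overlap. Among the induced groups, eUB against iSP had 1 higher and 2 lower of 3 (backgrounds 29.2% and 30.3%), eUB against iNP 1 and 1 of 2 (25.2% for each), and iSP against iNP 1 and 1 of 3 (19% and 18.6%). The members were chosen on these values, and a gene low in 1 group passes through the other, so nothing is read from these counts.

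Other Pitx and Nkx genes were low. Nkx2-1, known from the lung, thyroid and forebrain, was 0.668, 0.213, 0.558 and 0.46 in eUB and at 0 in E12.5 UB, at least 12.9-fold lower against a floor of 3 reads over the group. Nkx2-9 was 0.52, 0.426, 0.644 and 0.39 in eUB. Both were thus read in every eUB library, as Nkx6-1 was, at a small part of its level. Nkx2-3, a gene of gut mesenchyme, was 2.1, 1.07, 0.278 and 0.078 over the E11.5 SP libraries, high in the same replicates as Nkx3-2. Nkx6-1 and Nkx6-2, close relatives, had their highest means in different groups. Nkx1-1, Nkx2-4, Nkx2-6 and Nkx6-3 were not analysed here.

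**Figure D4:**
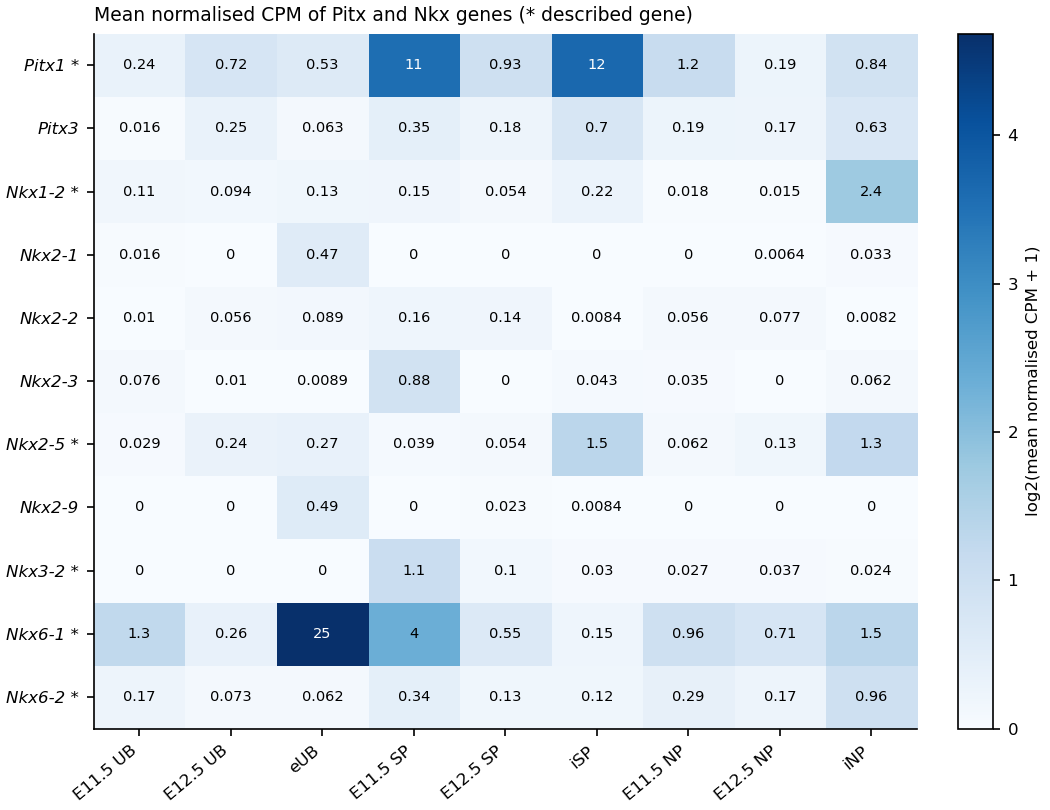
Mean level of the members and other Pitx and Nkx genes in each of the 9 groups, printed in normalised CPM and shaded by log2(value + 1), darker for higher, with a star on the members. Nkx6-1 stands out in eUB (24.7) and Pitx1 in iSP (11.7) and E11.5 SP (10.8).

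The genes beside the members on the chromosome were tested in the same comparisons. For each member the nearest protein-coding gene on each side that does not overlap it was tested, 12 genes in all. Fgfr2, which overlaps Nkx1-2 without shared exon bases, and Inpp5a, which overlaps Nkx6-2, were thus not among the 12. Of the 95 tests that passed the filter 53 were called, where 54.6% of all genes tested were called over the same 9 comparisons pooled. Around Nkx6-1, Agpat9 (759.0 kb away) fell by a log2 of 1.18 in eUB against E11.5 UB (SE 0.15, adjusted p = 0.00010) and Cds1 (100.1 kb away) fell by 1.07 (SE 0.10), while Nkx6-1 stood 3.45 higher. Around Pitx1, Pcbd2 (48.2 kb) was at -0.03 in iSP against E12.5 SP (adjusted p = 0.808) and H2afy (237.4 kb) rose by 0.28 (adjusted p = 0.006). Around Nkx1-2, Oat (18.5 kb) rose by 1.21 and Lhpp (11 kb) by 0.63 (adjusted p = 0.003) in iNP against E11.5 NP. Around Nkx2-5, Bnip1 (46.1 kb) rose by 1.16 in iSP against E11.5 SP and Kifc5b (72.1 kb) was at -0.20 (adjusted p = 0.261). Without E11.5 SP replicates 1 and 2, Bnip1 was at 1.12 (adjusted p = 1.3e-05) and Kifc5b at 0.04 (adjusted p = 0.76). The neighbours of Nkx1-2 thus rose beside it, those of Nkx6-1 fell, and around Pitx1 and Nkx2-5 the gene on only 1 side was called. All of these adjusted p-values are from limma with Benjamini-Hochberg adjustment.

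The genes whose levels followed each member most closely were found by Pearson's r on the log2(value + 1) scale over the 36 libraries, among 16001 genes. These r values describe libraries that share groups and sorts, and the points of a group are not independent of each other. For Nkx6-1 they were Dlx6 (0.91), Sp9 (0.91), Eda2r (0.89), Dlx5 (0.88) and Cntnap3 (0.88). Dlx5, a homeobox gene of branchial arches and limbs, was 40.3 to 45 in eUB and 4.68 to 9.53 in E11.5 UB, and Sp9, of the limb ectoderm, was 13 to 17.4 in eUB and no more than 0.362 in E11.5 UB. For Pitx1 they were Hotair (0.89), Gsc (0.89), Crnde (0.87), Shox2 (0.87) and Tbx4 (0.86). Hotair, a long non-coding RNA of the HoxC cluster, was 1.25 to 1.86 in iSP and 3.54, 2.48, 0.675 and 0.442 in E11.5 SP, ordered over those replicates as Pitx1 was.

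For Nkx1-2 the closest were Tlx1 (0.97), Wnt1 (0.97), Cdx4 (0.96), Ptchd2 (0.95) and Lhx5 (0.95). Wnt1, a signal of the dorsal neural tube and midbrain, was 8.76 to 12.3 in iNP, no more than 0.123 in the NP groups and 0.0369 to 0.358 in iSP. For Nkx6-2, also highest in iNP, a different set led: Tmem163 (0.88), Fabp7 (0.87), Dll3 (0.86), Etv2 (0.86) and Pou3f2 (0.85). For Nkx2-5 the first 4 were Gm15181 (0.96), Hsf4 (0.95), Esx1 (0.94) and Ndufa4l2 (0.94), and Hsf4, a heat shock factor known from the lens, was 1.85 to 1.98 in iSP and 1.3 to 1.73 in iNP. For Nkx3-2 they were Foxf2 (0.95), Hoxa13 (0.91), Foxf1 (0.90), Slc24a4 (0.90) and Lrrc7 (0.89). Foxf1 and Foxf2 are known from the mesenchyme around the gut, and Foxf1 was 20.2, 14.6, 1.03 and 0.312 in E11.5 SP, again highest in replicates 1 and 2. No gene stood among the closest 5 of more than 1 member.

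**Figure D5:**
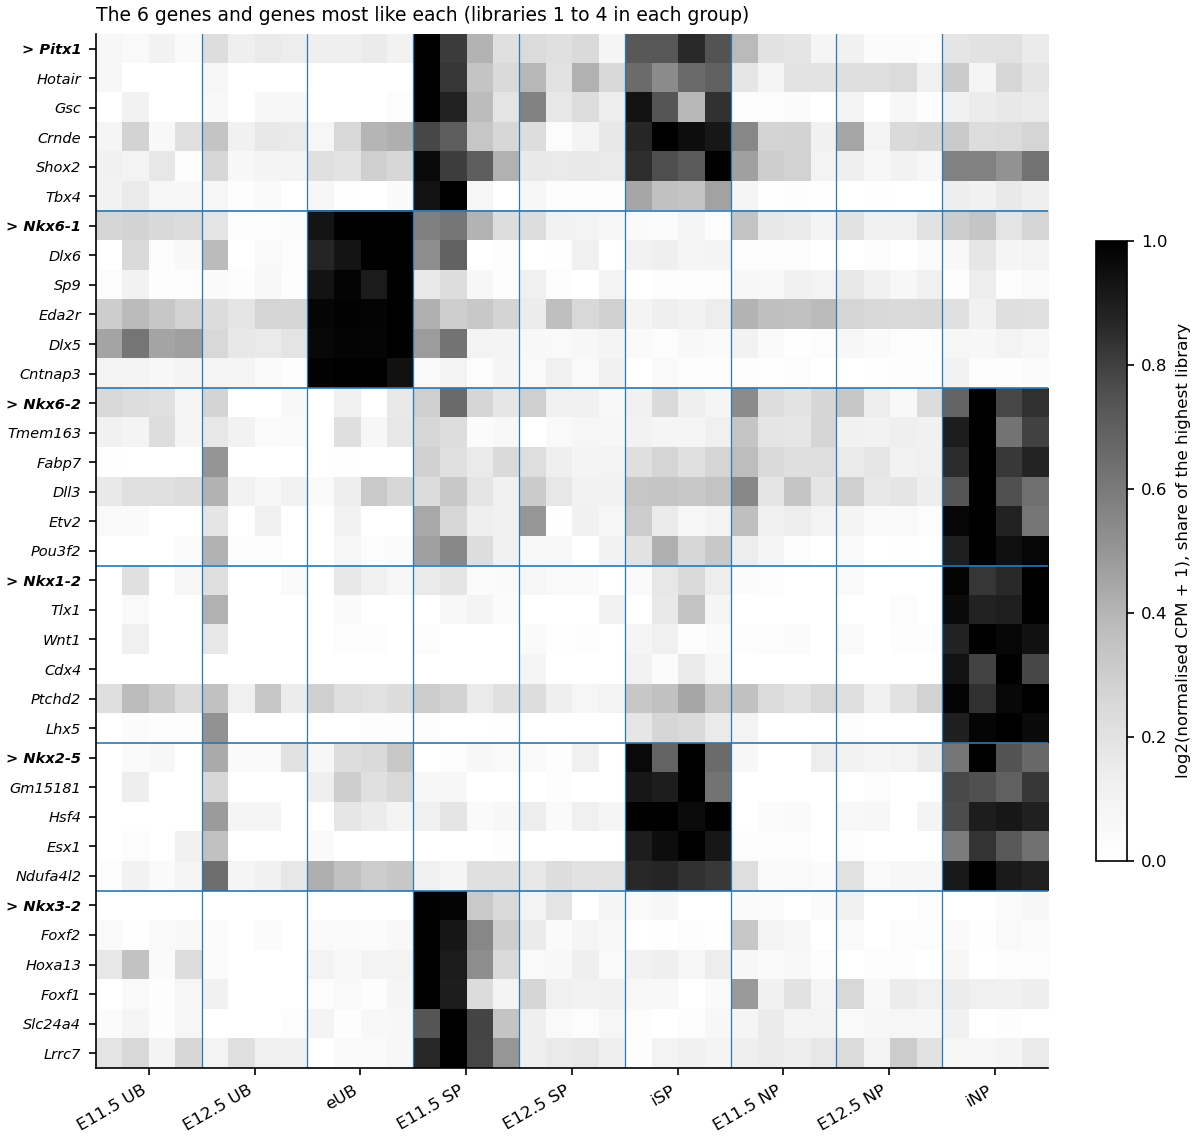
Levels of each member and genes most like it (rows) in the 36 libraries (columns, 4 per group), as log2(normalised CPM + 1) divided by the gene's highest library, darker for higher. The dark blocks lie in eUB for Nkx6-1, in iNP for Nkx6-2 and Nkx1-2, in iSP and iNP for Nkx2-5, and in the first and second E11.5 SP libraries for Nkx3-2, and for Pitx1 in iSP as well.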

How the data were processed

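mRNA of sorted cells was sequenced with a stranded paired-end kit in all 36 samples. Trimming was done by the authors in Cutadapt, alignment in STAR and scaling in edgeR. Their notes name a human build (GRCh38) although the gene identifiers are mouse. The counting program and its strand setting are not given in the sources used here. The deposited values are a normalised signal per gene: CPM, that is counts relative to library size, scaled by the authors with a factor for each library. Within a library 100.0% of values were whole multiples of 1 read (tolerance 0.01 reads), so read counts were recovered from the deposited values. A further deposited table repeats these values beside the authors' group means, fold changes and p-values, which were not used. All columns were mapped to samples, and 99.5% of identifiers were found in GENCODE vM21.

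The members and gene lists were chosen with earlier results of these data known. Genes with 1 normalised CPM or more in 4 of the 8 libraries compared entered limma 3.58.1 (R 4.3.3) on the log2(value + 1) scale, with Benjamini-Hochberg adjustment at 0.05, in 9 comparisons of 4 against 4 libraries. The tests and their alternatives, edgeR 4.0.16 and DESeq2 1.42.0 on recovered reads among them, were checked on simulated data. Genes were named by rule: the members, other Pitx and Nkx genes, nearest neighbours, the 5 most alike genes, up to 6 called genes of smallest p per list, and defining markers. Some genes that this rule would name are not reported here. List genes given with values for another reason (T, Tbx4) and the libraries set apart were chosen after their values were seen. Folds on 1 to 3 reads carry exact 95% counting intervals, and PCR copies mean that intervals and floors cover counting error only. Python 3.11.15, numpy 2.4.6, pandas 2.3.3, matplotlib 3.10.9 and BLAST 2.17.0 were used.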

Additional observations from a re-analysis of the deposited data

Results flagged for a closer look

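Of 51 sets of 4 libraries tested for a library far from the others (Dixon's test), 8 were marked. Chance marks about 1 in 20 sets of evenly measured values, but 3 of the marked sets held only 2, 3 and 9 reads, where whole reads set the ratio and this rate does not hold. The marks describe libraries, and nothing is read from their number. Pitx1 was 16.2 in the third iSP library, against 9.95 to 10.6 in the others, and 0.462 in the first E12.5 NP library, against 0.0772 to 0.113. Nkx6-1 was 0.86 in the first E12.5 UB library, 20.6 in the first eUB library, which was the shallowest of all at 13004352 reads, and 1.14 in the first E12.5 SP library. Nkx1-2 was 0.327 in the first E12.5 UB library and 0.0616, from 2 reads, in the first E12.5 NP library. Nkx3-2 was 0.0 in the third E11.5 NP library, where the others held 1 read each. Beside the 2 values in the first E12.5 UB library, its genes of other cell types were high too: stromal genes summed to 1090 against 206 to 233, and 37.3% of 14922 genes were highest there. The part of those cells in the Nkx6-1 and Nkx1-2 values was not tested.

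Nkx6-1 moved in opposite directions in the epithelial and stromal cells made from mESC. All 4 eUB libraries (mean 24.7) were above all E11.5 UB libraries (1.17 to 1.49), and all 4 iSP libraries (mean 0.154) were below all E11.5 SP libraries. The difference between these contrasts was not tested.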

How the results depend on the processing

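The counts of genes called stayed within 1.5 times of the values reported in all 154 alternatives (pseudocount 0.1, other scalings, no filter or another filter, a single fit over all samples, edgeR, DESeq2, libraries left out). On recovered reads edgeR called 9402 genes and DESeq2 9699 between iSP and E11.5 SP, against 9411 in limma. For iSP against iNP, with 4320 genes called, they ran from 3357 to 6297 with a library left out. Replicate numbers were not taken to pair the samples, since in no comparison did all 4 same-numbered pairs correlate above 0.1. In a pair of comparisons 3 of 4 did, iNP against E12.5 NP (0.38 to 0.42) and eUB against iSP (0.22 to 0.69), where 6 and 5 of 8 samples correlated best with their own number. There a fit with the replicate number as a block called 7186 genes against 6237 without it, and 9958 against 9189. The block lowered the count in the other 7 comparisons, most between iSP and iNP, to 3607. Among single genes, 1 direction reversed: Bod1l, the neighbour of Nkx3-2, was at 0.61 in eUB against E11.5 UB without the first eUB library and at -0.31 with it, between -0.71 and 0.61 over all libraries left out, and the cause was not tested. Under edgeR and DESeq2, where it was not called either, it was at 0.22 and 0.21.

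No member that passed the filter changed direction in any alternative run. The log2 values of members near the floor grew with a smaller added constant and with the count models, as the construction of the scale sets. Nkx1-2 between iNP and E11.5 NP was 1.72, 4.39 with a pseudocount of 0.1 and 6.93 in DESeq2, and Nkx2-5 between iSP and E11.5 SP was 1.25, 3.51 and 5.29. Pitx1 between iSP and E11.5 SP moved with the libraries and the count models instead, from 0.75 to 0.08 in edgeR and 0.05 in DESeq2 and to 2.18 without E11.5 SP replicates 1 and 2. Depth limits Nkx1-2, Nkx2-5, Nkx3-2 and Nkx6-2 in ex-fetu cells, where most libraries held under 10 reads.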

Other observations

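The ages of the ex-fetu ureteric bud differed for members in opposite ways, by title. Nkx6-1 was 1.17 to 1.49 in E11.5 UB and 0.0457 to 0.86 in E12.5 UB, or 0.0457 to 0.0966 without the first E12.5 UB library. Pitx1 was 0.142 to 0.415 in E11.5 UB and 0.521 to 1.11 in E12.5 UB, or 0.521 to 0.686 without that library. Neither pair of ranges overlapped, but the cell source given for these 8 libraries states the other age, so the order in time is uncertain. No test was run on these values.

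Pitx3, known from the lens and midbrain dopamine neurons, was low but read in every iSP library (0.58 to 0.895) and every iNP library (0.422 to 1.02). It was 0.199 to 0.462 in E11.5 SP and 0.0459 to 0.433 in E12.5 SP, below iSP, but reached 0.554 in E11.5 NP and 0.462 in E12.5 NP, overlapping iNP. It did not pass 0.106 in eUB and was 0.901 in the first E12.5 UB library and at most 0.0914 in the others. Nkx2-2, a ventral neural tube factor like NKX6-1, gave at most 4 reads in any eUB, iSP or iNP library and had its highest value, 0.413, in the second E11.5 SP library.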
